A study of Mus musculus with 11 samples.

Results

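Acinar digestive enzymes are the secretory products of the acinar cells, the cells that make up most of the exocrine pancreas. 10 genes were followed here, taken by name from the 54232 genes of the count table: the trypsinogens Prss2, Try4 and Try5, the chymotrypsinogen Ctrb1, the elastases Cela1, Cela2a and Cela3b, the carboxypeptidases Cpa1 and Cpb1, and the pancreatic lipase Pnlip. All 10 were in the table. RNA was measured by bulk sequencing of a portion of each of 11 orthotopic pancreatic tumours. They grew from 1000 TB32048 cells, a carcinoma line of a female KPC mouse on the C57BL/6 background, placed in the pancreas of adult female C57BL/6-background littermates. All hosts were heterozygous for a tamoxifen-inducible Rosa26 CreERT2 and all were given tamoxifen; 6 carried PKN2 fl/fl (PKN2 KO, tumours KO A to F) and 5 carried PKN2 +/+ (PKN2 WT, tumours WT A to E). Rosa26 drives the Cre throughout the host, so the deletion extends to the normal pancreas and all stroma, while the implanted cells keep Pkn2.

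Acinar cells store their proteases as inactive zymogens in granules and release them into the ducts, and trypsin activates the other proteases in the gut. Transcripts of the digestive enzymes are among the most abundant of the normal pancreas and are usually low in ductal carcinoma. In bulk samples, fewer cells of a type and less RNA per cell cannot be told apart.

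As a sum, the enzymes were high in 3 tumours and lower in the other 8. Summed over the 10 genes, they took 0.256% of all counts in WT E (95% Wilson interval 0.255 to 0.258%), 0.0913% in KO E (0.0901 to 0.0926%) and 0.0234% in WT A (0.0228 to 0.0240%). WT B followed at 0.00880% (0.00836 to 0.00927%), then WT C at 0.00297% and WT D at 0.00147%. Among the other KO tumours the share was 0.00193% in KO B, 0.00127% in KO D, 0.00112% in KO F, 0.000925% in KO C and 0.000757% in KO A. The highest share was 339 times the lowest, and 72.1% of all counts of the 10 genes came from WT E. These intervals leave out every error but that of counting, and reads without molecular identifiers are not independent molecules.

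KO E was the high tumour of PKN2 KO, WT E and WT A were those of PKN2 WT, and both genotypes also held low tumours. The mean share was 0.0162% ± 0.0368 (SD, n = 6) in PKN2 KO and 0.0586% ± 0.111 (SD, n = 5) in PKN2 WT, so that the SD exceeded the mean in each group. The difference of the mean log2 shares, KO minus WT, was -2.32, against a pooled SD of 2.75 between tumours of a group. It was -1.21 without WT E and -3.37 without KO E. No p-value is given for this sum, because the genes were chosen with earlier results of these data known.

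Library depth ran from 16294128 counts (WT B) to 31121422 (WT E), so that 3 counts, taken as the floor, correspond to 0.0964 to 0.184 CPM, the unit in which a gene's counts are divided by the tumour's total and scaled up by the same factor in every tumour. KO E, with 23117775 counts, and WT A, with 24996551, were of middling depth. Ribosomal RNA rows took 0.241 to 1.40% of counts in 10 tumours and 6.39% in WT B. Leaving these rows out of the total gave a difference of -2.34 for the summed share. Markers of carcinoma and duct epithelium were detected in every tumour, with 8 of 8 counted and a summed level of 2324 to 8571 CPM. Krt18 and Krt8 were the most abundant of them by mean CPM. In WT B, the tumour with the lowest sum, Epcam had 42 counts and Cftr had 3, the floor.

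The members lie on 6 chromosomes of GRCm38 and are all annotated as protein coding in GENCODE M21. The trypsinogens share a stretch of chromosome 6: Prss2 at chr6:41521787-41525079 (+), Try4 at chr6:41302269-41305532 (+) and Try5 at chr6:41311233-41316841 (-). Cpa1 lies apart on the same chromosome at chr6:30639218-30645363 (+). Cela2a at chr4:141814962-141826160 (-) and Cela3b at chr4:137420999-137430540 (-) lie on chromosome 4, with Cela1 at chr15:100674421-100687921 (-). Cpb1 is at chr3:20248264-20275733 (-), Ctrb1 at chr8:111686519-111691010 (-) and Pnlip at chr19:58652498-58681788 (+). Counts were taken over exons on the matching strand.

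Near-identical copies limit some of these counts, because only uniquely aligned reads were counted. The longest Try4 and Try5 transcripts were identical at 97.1% of aligned bases, and those of Prss2 at 91.2% with Try4 and 90.4% with Try5. Of all windows of a read's length, 19.0% of those in Try4 and 16.5% of those in Try5 occurred in the other gene. For Cela2a 10.2% of windows occurred in Ctrc, which overlaps it on the same strand, and for Cela3b 0.858% in Cela3a. The other 6 genes had none. Of the exonic bases of Cela2a, 17.7% are shared with Ctrc. Values of Try4, Try5, Cela2a and Cela3b are uncertain for these reasons, to a degree that the shares do not measure.

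Transcription of acinar enzymes is known to depend on PTF1, a complex of PTF1A, a class A basic helix-loop-helix partner and RBPJL, whose bipartite site joins an E-box (CANNTG, often CACCTG) to a TTTCCCA box. RefSeq promoters on GRCm38.p6 were matched for 9 of the 10 members, and the 250 bases before the annotated start were searched on both strands. The window of Pnlip, the member with none of these motifs, lies inside the gene span that GENCODE M21 gives. Those of Cela2a, Cela3b, Try4 and Cela1 overlap the M21 spans of their genes in part, Cela2a the most. The M21 span of Cela2a ends at chr4:141826160 and takes in the TTTCCCA match of its window. Each CACCTG match is also counted under the wider E-box pattern. CANNTG occurred in 8 of the 9 and in 66.2% of all 32851 promoters of that length, CACCTG in 6 of the 9 and in 17.2% of all, and TTTCCCA in 4 of the 9 and in 6.82% of all. A match describes letters and is no evidence of binding, and the spacing between E-box and TTTCCCA box was not examined. 4 sequences are shown 5′ to 3′ on the gene's strand, with CACCTG and TTTCCCA matches of either strand in capitals: Prss2 and Cela2a because they hold both, Ctrb1 because it is the most abundant member, and Cela1 because its level departed from the others. They cover chr6:41521526-41521775 (+), chr4:141826006-141826255 (-), chr8:111691011-111691260 (-) and chr15:100687921-100688170 (-).
Prss2: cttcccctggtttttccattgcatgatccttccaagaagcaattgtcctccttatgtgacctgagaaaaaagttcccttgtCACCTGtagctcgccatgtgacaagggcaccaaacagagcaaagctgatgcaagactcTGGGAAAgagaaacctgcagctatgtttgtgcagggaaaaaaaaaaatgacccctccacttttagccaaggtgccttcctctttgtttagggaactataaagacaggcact
Cela2a: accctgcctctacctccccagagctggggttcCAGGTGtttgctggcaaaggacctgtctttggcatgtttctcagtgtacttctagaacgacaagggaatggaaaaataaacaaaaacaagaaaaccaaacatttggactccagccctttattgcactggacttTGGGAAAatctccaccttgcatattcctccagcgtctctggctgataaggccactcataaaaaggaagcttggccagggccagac
Ctrb1: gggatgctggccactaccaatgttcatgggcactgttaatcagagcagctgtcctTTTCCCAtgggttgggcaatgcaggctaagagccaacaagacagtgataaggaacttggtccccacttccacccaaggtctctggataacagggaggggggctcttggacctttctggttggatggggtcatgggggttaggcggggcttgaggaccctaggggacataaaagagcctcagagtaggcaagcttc
Cela1: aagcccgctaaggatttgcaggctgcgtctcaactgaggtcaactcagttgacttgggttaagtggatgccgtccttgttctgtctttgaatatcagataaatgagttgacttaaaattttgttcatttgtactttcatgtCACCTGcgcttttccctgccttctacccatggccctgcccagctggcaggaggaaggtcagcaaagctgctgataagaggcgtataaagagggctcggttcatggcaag
The Prss2 window holds CACCTG from 169 bases before the start and a TTTCCCA box on the opposite strand from 111 bases before it. In Cela2a the same motifs begin 218 and 85 bases before the start, both on the opposite strand. Ctrb1 holds TTTCCCA from 195 bases before the start and Cela1 holds CACCTG from 109 bases before it.

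**Figure D1:**
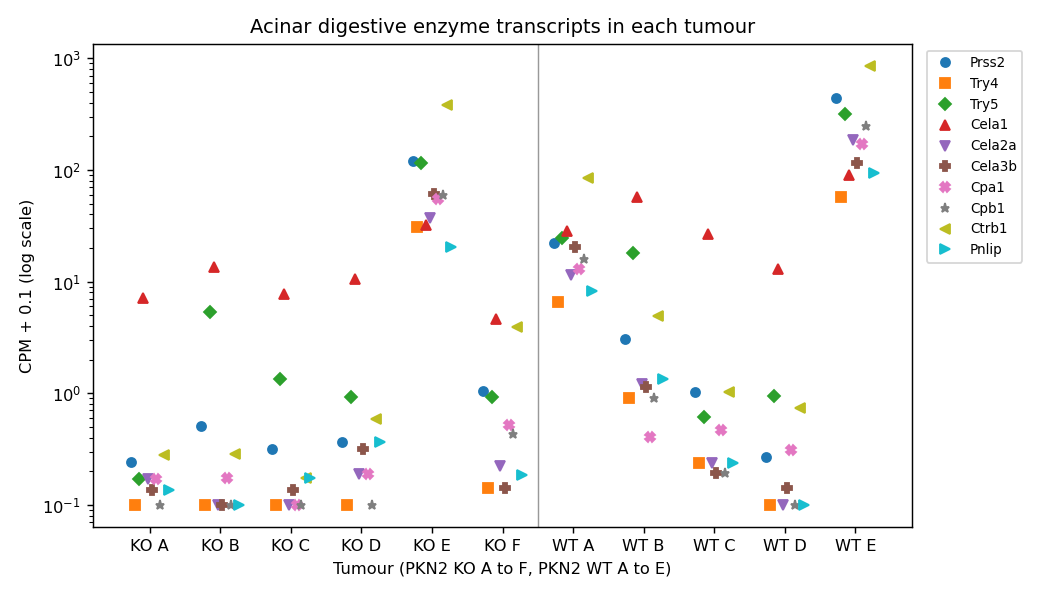
CPM of each of the 10 enzyme genes (symbols) in each of the 11 tumours, with 0.1 added so that zeros can be drawn on the log axis and a line between the genotypes. In WT E, KO E and WT A 9 of the genes have their 3 highest levels, while elsewhere most lie lower and Cela1 stands above the rest. Cela1 lies higher in WT B than in KO E or WT A.

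Ctrb1, the chymotrypsinogen B precursor, was the most abundant member in those 3 tumours. It reached 854 CPM in WT E and 84.4 CPM in WT A, against 4.79 in WT B, 0.920 in WT C and 0.633 in WT D. In PKN2 KO it ranged from 0.0726 to 383 CPM with a median of 0.334, the highest being KO E and the next KO F at 3.83. The genotypes therefore overlapped, with the KO E level above 4 of the 5 WT tumours. edgeR's quasi-likelihood test gave a log2 fold change, KO over WT, of -1.55 ± 2.02 (approximate SE) with a Benjamini-Hochberg adjusted p of 0.664.

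Prss2, the anionic trypsinogen, followed the same order. Its level was 439 CPM in WT E, 22.2 in WT A, 2.95 in WT B, 0.920 in WT C and 0.169 in WT D. In PKN2 KO it ranged from 0.143 to 120 CPM (KO E) with a median of 0.334. Only KO E, WT E and WT A exceeded 3 CPM. The log2 fold change was -2.19 ± 1.90 with an adjusted p of 0.493 (edgeR).

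Try5 and Try4, neighbouring trypsinogen genes, parted from each other outside the high tumours. Try5 measured 315 CPM in WT E, 24.3 in WT A, 17.7 in WT B, 0.843 in WT D and 0.506 in WT C, and in PKN2 KO from 0.0714 to 115 CPM with a median of 1.03. Its WT B level lay close to that of WT A, and KO B, at 5.20 CPM, was the second highest KO tumour. Try4 measured 56.5 CPM in WT E, 6.52 in WT A, 0.798 in WT B, 0.138 in WT C and 0 in WT D, and in PKN2 KO it was at 0 counts in 4 tumours, at 1 count in KO F and at 30.5 CPM in KO E. In WT B, 289 counts fell on Try5 and 13 on Try4, and in KO B 141 and 0. Try5 had a log2 fold change of -1.83 ± 1.64 with an adjusted p of 0.508 (edgeR). Try4 did not pass edgeR's default filter on low counts, and the fit without that filter gave -1.29 ± 1.71 with an adjusted p of 0.681.

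The pancreatic elastases Cela2a and Cela3b were high in the same 3 tumours and close to 0 elsewhere. Cela2a measured 186 CPM in WT E, 11.2 in WT A, 1.10 in WT B, 0.138 in WT C and 0 in WT D, and in PKN2 KO 0 to 36.6 CPM with a median of 0.0796. Cela3b measured 115 CPM in WT E, 20.1 in WT A, 1.04 in WT B, 0.0920 in WT C and 0.0422 in WT D, and in PKN2 KO 0 to 61.3 CPM with a median of 0.0389. Each KO maximum was KO E, and the other 5 KO tumours held at most 5 counts of either gene. In the unfiltered edgeR fit the log2 fold changes were -2.64 ± 1.77 (adjusted p = 0.440) for Cela2a and -1.37 ± 1.72 (adjusted p = 0.663) for Cela3b.

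The carboxypeptidases, which trim proteins from their carboxyl end, showed the widest step between high and low tumours. Cpb1, carboxypeptidase B, measured 245 CPM in WT E and 16.0 in WT A, then 0.798 in WT B, 0.0920 in WT C and 0 in WT D. It was at 0 counts in KO A to KO D, at 8 counts in KO F and at 59.9 CPM in KO E. In KO A, 0 counts give a 95% Wilson interval that reaches up to 0.137 CPM. Cpa1, carboxypeptidase A, measured 170 CPM in WT E, 12.8 in WT A, 0.368 in WT C, 0.307 in WT B and 0.211 in WT D, and in PKN2 KO 0 to 54.5 CPM with a median of 0.0808. WT E was 409.6 times as high as KO F, the next tumour after the leading 3. The unfiltered log2 fold changes were -2.33 ± 1.85 (adjusted p = 0.483) for Cpb1 and -1.95 ± 1.71 (adjusted p = 0.528) for Cpa1 (edgeR).

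Pnlip, which splits dietary triglycerides, was the least abundant member per length in KO E and WT A. Its level was 93.6 CPM in WT E, 8.20 in WT A, 1.23 in WT B, 0.138 in WT C and 0 in WT D, and in PKN2 KO 0 to 20.5 CPM with a median of 0.0779. The KO maximum was KO E. The unfiltered log2 fold change was -2.52 ± 1.63 (adjusted p = 0.423, edgeR).

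Cela1 was the member that departed from the rest. This elastase is also made outside the pancreas, and it was counted in every tumour, from 109 counts in KO F to 2796 in WT E. It measured 89.8 CPM in WT E, 57.3 in WT B, 28.2 in WT A, 26.4 in WT C and 12.8 in WT D, and in PKN2 KO from 4.53 to 32.0 CPM with a median of 9.05. WT B came next after WT E, followed by KO E, and the highest level was 19.8 times the lowest, against 3078 times for Prss2. Of the 5 WT tumours 4 exceeded at least 5 of the 6 KO tumours, and KO E exceeded 3 WT tumours. The mean was 12.5 ± 10.02 CPM (SD, n = 6) in PKN2 KO and 42.9 ± 30.8 CPM (SD, n = 5) in PKN2 WT.

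Cela1 had the smallest p of the members but did not pass the threshold. Its log2 fold change was -1.96 ± 0.55 with an unadjusted p of 0.0033 and an adjusted p of 0.0938 (edgeR). It was negative without any 1 of the 11 tumours. DESeq2 gave -1.94 with an adjusted p of 0.00897, and called 4.85% of the genes with an adjusted p lower in PKN2 KO. Without WT D, the lowest WT tumour, edgeR gave -2.21 with an adjusted p of 0.0442. That fit called 203 genes higher and 651 lower of 16830, against 3 higher and 0 lower of 16536 with all tumours. Without WT E edgeR gave -1.64 (adjusted p = 0.0713) and without KO E -2.49 (adjusted p = 0.0965).

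4 of the 10 members (Prss2, Try5, Cela1 and Ctrb1) passed edgeR's filter on low counts, and the other 6 did not. Of those 4, 0 passed an adjusted p of 0.05, where 3 of 16536 genes, or 0.0181%, did, all higher in PKN2 KO. At an unadjusted p under 0.05 the count was 1 of the 4, Cela1, against 24.0% of all genes tested. Without the filter 0 of 10 members and 0.152% of 29689 genes passed. DESeq2 gave an adjusted p for 2 members and called Cela1; the other 8 were given no p because of an outlying count. 0 of the 10 members had groups that did not overlap in CPM, against 3.3% of all genes past the filter.

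In the edgeR fit, the direction of 9 members rested on WT E. Median CPM within a genotype was higher in PKN2 WT for each member, as for Ctrb1 at 4.79 against 0.334. The difference of the mean log2 summed share, which includes Cela1, was still -1.21 without WT E. With all tumours, the fitted log2 fold changes of the 10 members in the unfiltered fit were all negative, with a median of -1.92. Without WT E they turned positive for every member but Cela1, from 0.37 for Pnlip to 1.46 for Prss2, with adjusted p-values of 0.595 to 0.905. Without KO E, the high KO tumour, they ranged from -2.42 for Cela1 and -5.42 for Try5 to -9.91 for Try4. In this fit Cela1 passed (adjusted p = 0.0368), Try4 had an adjusted p of 0.0510 and the other 8 had 0.0641 to 0.129. Of 29507 genes in it, 64 passed as higher and 5 as lower in PKN2 KO. The p-values measure the spread between these tumours, each from its own animal.

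**Figure D2:**
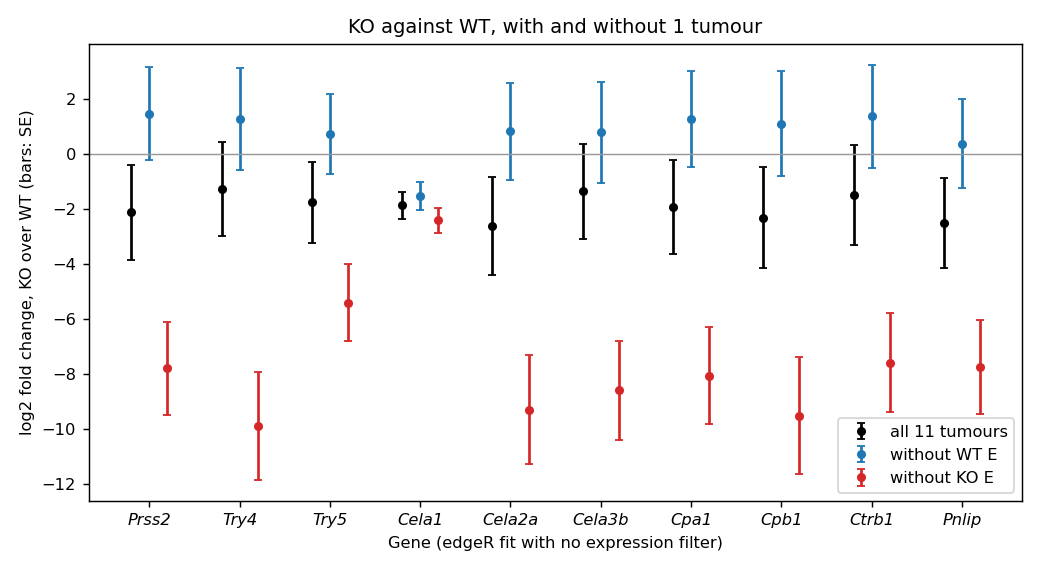
log2 fold change of each gene, KO over WT, from the edgeR fit with no expression filter, with all 11 tumours (black), without WT E (blue) and without KO E (red); bars are SE. 9 of the genes lie above 0 without WT E and between -5.42 and -9.91 without KO E, while Cela1 stays between -1.54 and -2.42.

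Within the 3 high tumours the same members ranked highest per length, while the order below them differed. Per kilobase of exon, Ctrb1 was first in WT E (972 CPM per kb), KO E (436) and WT A (96.1). Prss2 was second, with 539, 147 and 27.3, and Try5 was next, with 350, 128 and 27.0. The remaining 7 members lay between 39.0 and 107.98 in WT E, 9.34 and 38.1 in KO E, and 3.74 and 12.2 in WT A. Cela2a led these 7 in WT E, Try4 in KO E and Cela1 in WT A. Cela1 was last in WT E.

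The mixture differed between the 3 tumours, each of which is a lone sample, and the intervals take in counting error alone. Ctrb1 made up 41.9% of the counts of the 10 genes in KO E (95% Wilson interval 41.3 to 42.6%), 36.1% in WT A (34.8 to 37.3%) and 33.3% in WT E (33.0 to 33.6%). Prss2 made up 17.1% in WT E (16.9 to 17.4%), 13.1% in KO E (12.7 to 13.6%) and 9.50% in WT A (8.78 to 10.3%). Relative to Ctrb1, Prss2 stood at 0.515 in WT E, 0.313 in KO E and 0.264 in WT A. Cela3b ran the other way, at 0.134, 0.160 and 0.238. From KO E to WT E the members increased by 1.85 times (Try4) to 5.08 times (Cela2a).

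Outside these tumours Cela1 and Try5 made up nearly all enzyme counts. Together they gave 85.2 to 96.6% of the counts of the 10 genes in KO A, KO B, KO C, KO D, WT B, WT C and WT D, against 15.8% in WT E and 16.1% in KO E. Cela1 alone gave 92.0% in KO A and 65.1% in WT B. KO F was intermediate, with 48.0% from both and 34.2% from Ctrb1 (28.8 to 40.1%). Without Cela1 and Try5, the other 8 members summed to 2160 CPM in WT E, 766 in KO E, 182 in WT A, 13.0 in WT B, 5.82 in KO F and 0.399 to 2.81 in the remaining 6 tumours.

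**Figure D3:**
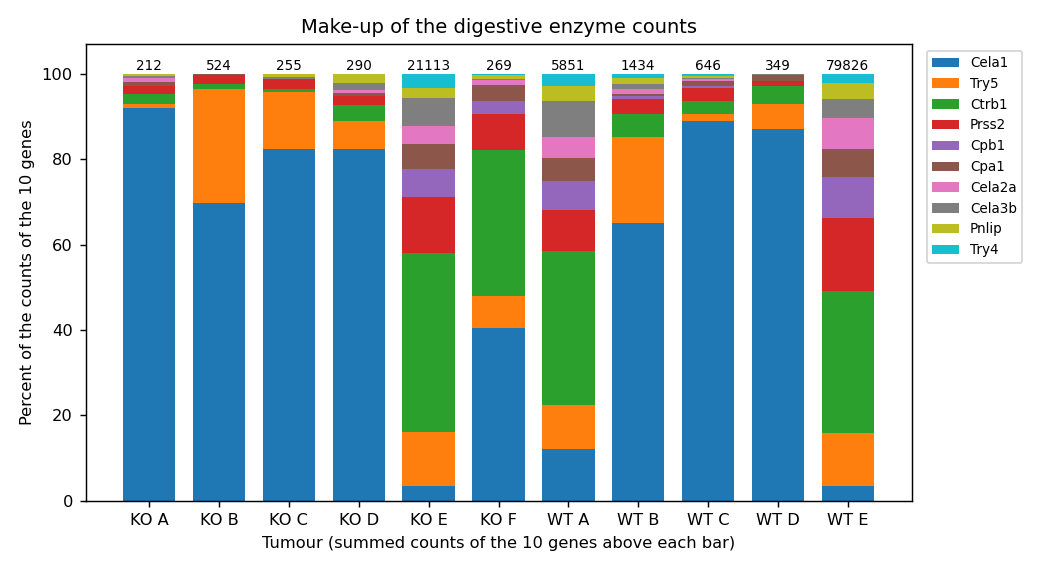
Percent of the summed counts of the 10 genes that each gene took in each tumour, with the summed counts above the bars. In KO E, WT A and WT E Ctrb1 and Prss2 took 45.6 to 55.0% together, while Cela1 took 65.1 to 92.0% in KO A to KO D and WT B to WT D.

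Other genes of the acinar secretory programme lay high in the same tumours. Of 31 further genes in lists of pancreatic proteases, of other enzymes and cofactors, and of zymogen granule proteins and inhibitors, 29 had a count, and in 25 the 3 highest tumours were WT E, KO E and WT A. 7 passed the expression filter and 0 passed the test in either direction. Among the 13 proteases, 11 were counted. 2210010C04Rik, a trypsin-like gene, had 358 CPM in WT E, 96.9 in KO E and 26.0 in WT A, and at most 14 counts elsewhere. Klk1, a tissue kallikrein, had 84.1, 30.6 and 5.36 CPM, and Ctrl, a chymotrypsin-like enzyme, had 55.7, 23.2 and 5.96.

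Lipid-handling and granule genes gave the same picture. Of the 12 enzymes and cofactors, Pnliprp1, a lipase-related protein, had 468 CPM in WT E, 129 in KO E and 44.6 in WT A. Cel, the bile salt-dependent lipase, had 217, 46.4 and 11.8 CPM. Of the 6 granule and inhibitor genes, Gp2, a zymogen granule membrane glycoprotein, had 3247, 534 and 175 counts and 3 to 31 elsewhere, and Zg16 had 1185, 487 and 180 counts and 0 to 10 elsewhere. All 6 had WT E, KO E and WT A as their highest tumours. Of the 5 acinar regulators, 4 were highest in WT E, and 1 had WT E, KO E and WT A as its highest tumours. That gene was Rbpjl, the PTF1 subunit, with 137, 20 and 9 counts and at most 1 elsewhere. Cckar, the cholecystokinin receptor of acinar cells, had 177 counts in WT E, 45 in KO E, 7 each in WT A and WT D, and at most 1 elsewhere. Ptf1a had 25 counts in WT E, 2 in KO E and 0 elsewhere. Nr5a2, a nuclear receptor of the acinar lineage, was highest in KO F (199 counts) and Bhlha15, the secretory-cell factor also called MIST1, had 81 counts in WT E and 5 to 45 elsewhere. These 2 were the regulators that passed the filter, and neither passed the test, with adjusted p-values of 0.763 and 0.921 (edgeR).

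The genes most like the members were mostly secretory genes of the pancreas. Likeness was Pearson's r, across the 11 tumours, of log2(CPM + 1) with the mean of the 10 members, over 18176 other genes; the 3 high tumours weigh heavily in it. Among the 10 nearest were 2210010C04Rik (r = 0.994), Zg16 (0.993), Pnliprp1 (0.989), Reg2 (0.989), Rnase1 (0.989), Cel (0.988), Ctrl (0.988), Sycn (0.987) and Klk1 (0.979). Reg2, a regenerating-family secreted protein, belongs to none of the lists above. Reg2 had 8326 counts in WT E, 1914 in KO E, 557 in WT A, 20 in KO F and at most 6 elsewhere. 18 genes had r over 0.95. The likeness of the members themselves ran from 0.959 to 0.998, except for Cela1 at 0.765. Each member is part of that mean, which raises these values relative to those of other genes. The median r with the other members was 0.73 for Cela1, and 0.937 (Try5) to 0.995 (Cpb1) for the rest.

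Islet transcripts did not follow the enzymes. All 8 islet markers, hormones and granule genes of the endocrine pancreas, were counted in at least 1 tumour, and their summed level was 347 CPM in WT E, 82.6 in KO F, 61.4 in WT A and 3.36 in WT C. In KO E, with the second highest enzyme level, it was 0.346 CPM, and in the other 6 tumours it was 0 to 0.178 CPM. Ins2, an insulin gene, had 4525 counts in WT E, 643 in WT A, 642 in KO F, 13 in WT C and 1 in KO E. Ins1 had 3 counts in KO E and 548 in KO F, and Gcg, which encodes glucagon, had 4 and 425. Enzymes and islet genes were thus both high in WT E and WT A, and enzymes alone in KO E. In KO F islet genes were high while the sum of the 10 enzymes was low. Without Cela1 and Try5 the enzymes summed to 5.82 CPM in KO F, against 0.399 to 1.40 in KO A to KO D. 0 of the 8 islet genes passed the filter on low counts.

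**Figure D4:**
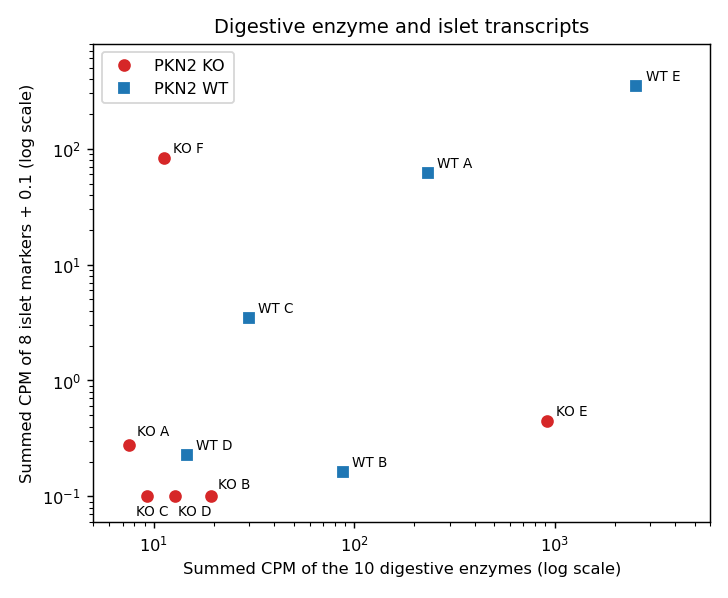
Summed CPM of the 10 digestive enzymes against summed CPM of 8 islet markers, with 0.1 added to the latter, on log axes; circles are PKN2 KO and squares PKN2 WT tumours. KO E lies at 913 and 0.346 CPM, KO F at 11.2 and 82.6 CPM, and WT E is highest on both axes.

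Markers of other cells differed between tumours too. The summed level of 6 fibroblast markers was 9952 CPM in WT E against 2100 to 3899 in the other WT tumours and 4548 to 9511 in PKN2 KO. The summed level of 6 B cell markers was 36.9 to 112 CPM in PKN2 KO and 4.66 to 35.2 in PKN2 WT, where WT E was highest. 6 adipocyte markers summed to 49.6 to 192 CPM in PKN2 KO and 42.8 to 172 in PKN2 WT, with Fabp4, also made by other cells, as the most abundant. Adipoq, which encodes adiponectin, had 6 to 344 counts in PKN2 KO and 2 to 38 in PKN2 WT, with an adjusted p of 0.135 (edgeR). In the unfiltered fit 4 of the 6 adipocyte markers had a positive log2 fold change and 2 a negative one. The latter were Fabp4 (-0.35) and Cidec (-0.64). The 8 gut and liver genes summed to 71.9 to 235 CPM in PKN2 KO and 19.0 to 297 in PKN2 WT. All 6 fibroblast, 6 adipocyte and 6 B cell markers and 7 of the 8 gut and liver genes were counted, and Tmprss15, the enteropeptidase of the duodenum that activates trypsinogen, was at 0 in every tumour. Their part in the enzyme levels was not tested.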

How the data were processed

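Per the labels and the study's methods, RNA from tumour portions was made into strand-specific libraries (NEB Next Ultra II Directional) and sequenced as paired reads on a NovaSeq; bcl2fastq 2.19, Trimmomatic, HISAT2 2.1.0 (mm10) and HTSeq 0.11.2 were applied, counting uniquely aligned reads over exons. The authors deposited raw counts per Ensembl gene, used here, and a normalised table that was not used. Identifiers were matched to GENCODE M21. CPM divides a count by the tumour's total. Groups and letters came from sample titles.

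KO and WT were compared with edgeR 4.0.16 (quasi-likelihood, TMM, filterByExpr, Benjamini-Hochberg, no covariate, R 4.3.3), checked on simulated counts; members failing the filter were taken from the fit over genes with at least 1 count. DESeq2 1.42.0, other filters and factors, a letter block and leaving out each tumour were alternatives. Wilson intervals came from scipy. Sequences came from RefSeq and GENCODE. Library pairs were compared by chi-square; the lowest value per degree of freedom was 33.9, so no library was counted as a duplicate. The labels gave no batch. Pkn2 counts cannot check the genotype, since the carcinoma cells keep the gene.

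All 10 members were named, up to 4 genes of other lists by mean CPM (Tmprss15, Ptf1a and Gif fall outside this rule and were chosen after their values were seen), and the 10 most like genes with at least 10 counts in at least 2 tumours; 1 gene that this rule names is not reported here. The members and lists were chosen with earlier results of these data known.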

Additional observations from a re-analysis of the deposited data

Results flagged for a closer look

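On the linear scale KO E stood apart from the other 5 KO tumours for every member, by a gap to its nearest neighbour that exceeded Dixon's 95% critical value for its group: Cela1 at 32, Prss2 at 120, Try4 at 30.5, Try5 at 115, Cela2a at 36.6, Cela3b at 61.3, Cpa1 at 54.5, Cpb1 at 59.9, Ctrb1 at 383 and Pnlip at 20.5 CPM. The summed share of the 10 genes in KO E, 0.0913% of counts, did so as well. WT E stood apart from the other 4 WT tumours in the same way for 9 members: Prss2 at 439, Try4 at 56.5, Try5 at 315, Cela2a at 186, Cela3b at 115, Cpa1 at 170, Cpb1 at 245, Ctrb1 at 854 and Pnlip at 93.6 CPM. Its summed share was 0.256% of counts. WT E did not stand apart for Cela1.

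22 such comparisons were made and 21 exceeded the critical value. Chance alone gives about 1 in 20 only for normally distributed values, and these linear values were strongly skewed, so that rate does not apply to them. The genes share their tumours, so the comparisons are not independent. On the log2(CPM + 1) scale 10 exceeded it, all of them KO E, for the sum and every member but Cela1 (a gap of 0.462 of the range, under the critical value). WT E exceeded it for 0 members on that scale.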

How the results depend on the processing

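The count of members past an adjusted p of 0.05 was 0 with other normalisation factors, with no filter and with a minimum of 10 counts in at least 2 tumours. It was 1 with DESeq2, and 0 to 1 when 1 tumour was left out, with or without the filter. The 1 was Cela1 in each case (without WT D in both fits, and without KO E in the unfiltered fit). The unfiltered fits with 1 tumour left out were added after seeing the data. Without WT D the unfiltered fit called 152 genes higher and 390 lower of 29466. Without WT E the log2 fold change reversed to 1.38 for Prss2, 1.27 for Try4, 0.59 for Try5, 0.81 for Cela2a, 0.79 for Cela3b, 1.27 for Cpa1, 1.09 for Cpb1, 1.28 for Ctrb1 and 0.37 for Pnlip, and in the unfiltered fit to 1.46 for Prss2, 0.70 for Try5 and 1.35 for Ctrb1. Of 198 alternative values for single members, 179 kept their direction and side of the threshold, 12 reversed and 7 newly passed it. Without KO E the log2 fold change was -7.83 for Prss2, -9.91 for Try4, -5.45 for Try5, -9.32 for Cela2a, -8.61 for Cela3b, -8.08 for Cpa1, -9.53 for Cpb1, -7.62 for Ctrb1 and -7.77 for Pnlip, and 0 of these 9 passed. The cause was not tested. The difference of the mean log2 summed share was -2.34 without ribosomal RNA rows, -2.47 with TMM-scaled library sizes and -1.85 from the mean shares, and -3.37 to -1.21 with 1 tumour left out. Spearman's rho named 3 of the same 10 most similar genes and a pseudocount of 0.1 CPM named 7.

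The replicate letters did not pair the tumours: deviations of the same letter correlated at -0.135 to 0.118. With the replicate block, 0 members passed in the filtered fit, where 8 genes were higher and 1 lower of 16536. In the unfiltered fit 5 passed (Cpb1, Cela1, Cpa1, Prss2 and Cela2a), where 225 genes were higher and 62 lower of 29689. The block puts the outlying tumours KO E and WT E under the same letter. Depth limits levels under 0.0964 to 0.184 CPM (3 counts), where Try4 and Cela2a lay in 7 of the 11 tumours and Cela3b, Cpb1 and Pnlip in 6.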

Other observations

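Clps, the cofactor of pancreatic lipase, was counted 74 times in WT D, where Pnlip, Cela2a, Try4 and Cpb1 had 0 counts and Ctrb1 had 15. In the other low tumours it had 0 to 9 counts, and in WT E, KO E and WT A it had 2994, 729 and 240. Gif, the gastric intrinsic factor gene, had 148 counts in WT E, 12 in KO E and 8 in WT A, and 0 in the other 8 tumours. Both are given for these values, which were seen first.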
